A study of Mus musculus with 16 samples.

Results

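The genes described here carried H3K4me3 at the promoter in every induced pluripotent stem cell (iPSC) line and had no H3K36me3 over the gene body in any of them. They were chosen by measured values: a named gene on chromosomes 1 to 19 entered when its H3K4me3 value at the transcriptional start site (TSS) was above 0 in all 4 lines and its gene body H3K36me3 value was absent or 0 in all 4. Of 43984 genes in the table, 35074 were named and lay on these chromosomes, 12691 of those had H3K4me3 in all 4 lines, and 148 met the whole rule. H3K36me3 was listed in all 4 lines at 9710 of the H3K4me3 genes and in 3, 2 or 1 lines at 1742, 820 and 271. In 147 members H3K36me3 had no value in any line, and in 1, Ttc39d, a 0 was listed.

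The 4 lines were mouse iPSC clones selected to grow without doxycycline. PTC11 and PTC12 came from kidney proximal tubule cells (PTC), and TTF1 and TTF4 from tail tip fibroblasts (TTF). All mice carried 4 transgenes, heterozygous for each: SLC34a1-GCE, the tdTomato reporter, the transactivator allele rtTAROSA (neo-in) and the factor cassette OKMS-250, so that both origins carried the same doxycycline-driven reprogramming factors. The mice received tamoxifen food from 6 weeks of age for 2 weeks and were killed at 8 to 10 weeks. PTC were sorted as tdTomato+/GFP+ cells in which Cre was driven by the SLC34a1 promoter, and TTF instead received Cre on an episomal plasmid that does not integrate. Each line is 1 clone. The 16 samples cover 4 assays with 1 library per line, except that by their labels both PTC libraries for H3K27me3 come from PTC11 and none from PTC12. The lines were kept on mouse embryonic fibroblast feeders. With 1 library per line, p-values measure the spread between clones, from which differences between animals or libraries cannot be told apart. The paper states that ChIP was done in duplicate, but 1 library per line was available here for H3K4me3 and H3K36me3. Among marker genes, 11 of 15 pluripotency genes had H3K4me3 in all 4 lines, against 1 of 10 proximal tubule genes and 1 of 10 fibroblast genes.

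Trimethylation of lysine 4 on histone H3 marks promoters that RNA polymerase can enter. Trimethylation of lysine 36 is laid down along the body of a gene by an enzyme that travels with elongating RNA polymerase II, and trimethylation of lysine 27 is placed by Polycomb complexes on silent developmental promoters. Many small RNAs are not made from a gene of the ordinary kind: most small nucleolar RNAs (snoRNAs), which guide chemical changes of ribosomal RNA, are cut from the introns of host genes, U6 spliceosomal RNA is made by RNA polymerase III from a short promoter upstream of the gene, and clustered microRNAs (miRNAs) are cut from 1 shared transcript. The table names many of these genes by their RNA family, so the GENCODE name is given in parentheses where it is needed. Values are given in the order PTC11, PTC12, TTF1 and TTF4 unless said otherwise. H3K4me3 and H3K36me3 are in RPKM (reads scaled by region length and library size) above the input, and methylation is the fraction of methylated CpGs within 1 kb of the start.

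Sequences of the members that the results turn on follow, read from GRCm38 (mm10) 5′ to 3′ on the strand of the gene. The first are protein coding promoters, shown because Ttc39d had the highest mean H3K4me3 of the coding members with a mean methylation under 0.1 and Zik1 the highest mean methylation of the coding members. Each starts 250 bases before the gene and is 300 bases long, with CpG dinucleotides in capitals. Ttc39d lies at chr17:80207210-80207509 on the plus strand with 30 CpGs, and Zik1 at chr7:10495345-10495644 on the minus strand with 11.
Ttc39d: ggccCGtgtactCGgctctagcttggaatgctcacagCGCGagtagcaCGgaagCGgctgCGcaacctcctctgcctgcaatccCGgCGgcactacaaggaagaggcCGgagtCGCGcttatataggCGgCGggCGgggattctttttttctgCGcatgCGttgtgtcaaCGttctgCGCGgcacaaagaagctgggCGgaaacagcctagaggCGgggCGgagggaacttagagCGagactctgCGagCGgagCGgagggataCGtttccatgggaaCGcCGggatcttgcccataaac
Zik1: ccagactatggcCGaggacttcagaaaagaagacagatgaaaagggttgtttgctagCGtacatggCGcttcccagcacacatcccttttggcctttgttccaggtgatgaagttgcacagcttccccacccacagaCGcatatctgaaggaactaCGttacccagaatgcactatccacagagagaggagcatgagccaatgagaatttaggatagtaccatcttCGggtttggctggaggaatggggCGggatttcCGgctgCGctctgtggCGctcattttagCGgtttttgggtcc

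The same choice among the snoRNAs, the largest other class, gave Snord2 at chr16:23108703-23109002 on the plus strand, inside the translation factor gene Eif4a2, and a SNORD50 copy (Gm26135) at chr9:88857715-88858014 on the minus strand. Their windows held 4 and 5 CpGs.
Snord2: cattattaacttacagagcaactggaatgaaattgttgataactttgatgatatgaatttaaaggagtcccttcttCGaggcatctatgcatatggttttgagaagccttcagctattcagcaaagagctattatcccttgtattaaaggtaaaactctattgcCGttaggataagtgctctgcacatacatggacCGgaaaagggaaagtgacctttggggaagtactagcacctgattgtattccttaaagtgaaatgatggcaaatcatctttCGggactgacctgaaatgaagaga
SNORD50 (Gm26135): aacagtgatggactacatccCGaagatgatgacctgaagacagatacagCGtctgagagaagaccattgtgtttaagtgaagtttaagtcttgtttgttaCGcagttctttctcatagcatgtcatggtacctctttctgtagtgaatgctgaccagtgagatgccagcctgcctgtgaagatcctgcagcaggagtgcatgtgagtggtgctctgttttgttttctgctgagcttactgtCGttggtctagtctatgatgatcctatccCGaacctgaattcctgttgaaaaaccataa

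The 5 snoRNA members inside Gas5, a noncoding host gene on the plus strand of chromosome 1, are shown whole because they lie in a row across the stretch where H3K4me3 fell. Capitals mark the first TGATG, core letters of the C box, and the last CTGA, the letters of the D box. TGATG followed by CTGA stood on the gene's own strand in 26 of 27 snoRNA members of 60 to 100 bases and on the other strand in 1. It stood on the own strand in 362 of all 446 named snoRNAs of that length (81.2%) and in 13 of 990 other named small RNA genes of that length (1.31%), and on the other strand in 6 and 3.
SNORD75 (chr1:161035850-161035911): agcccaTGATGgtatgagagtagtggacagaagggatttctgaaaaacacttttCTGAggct
SNORD24 (chr1:161036057-161036139): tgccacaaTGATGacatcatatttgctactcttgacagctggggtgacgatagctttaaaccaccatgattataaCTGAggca
SNORD44 (chr1:161036682-161036741): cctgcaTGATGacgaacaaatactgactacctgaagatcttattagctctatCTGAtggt
SNORD78 (chr1:161036984-161037049): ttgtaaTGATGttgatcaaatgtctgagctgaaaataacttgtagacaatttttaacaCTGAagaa
SNORD79 (chr1:161037356-161037439): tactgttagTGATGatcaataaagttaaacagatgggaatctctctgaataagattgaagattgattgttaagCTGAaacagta

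Of 15 miRNA members, 10 matched the RefSeq miRNA table (GRCm38), with 16 mature sequences. The arms of Mir293 and Mir294, of the mir-290 cluster that is abundant in mouse pluripotent cells, and the 5p arm of Mir449c are shown with the seed (bases 2 to 8) in capitals. No seed was shared between members, although the seed of miR-294-3p was also that of miR-291a-3p and miR-295-3p in the same cluster. The seed of miR-293-5p was likewise that of miR-290a-5p and miR-292a-5p.
miR-293-5p: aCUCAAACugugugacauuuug
miR-293-3p: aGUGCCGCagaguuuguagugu
miR-294-5p: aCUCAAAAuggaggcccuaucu
miR-294-3p: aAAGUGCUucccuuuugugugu
miR-449c-5p: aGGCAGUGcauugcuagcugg

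A pair of libraries bears on much of what follows. H3K36me3 was listed for 12503 of the 12691 H3K4me3 genes in PTC11, against 11696 (PTC12), 11245 (TTF1) and 10533 (TTF4), and of 271 genes with H3K36me3 in 1 line alone, 250 had it in PTC11. When PTC11 was left out of the rule the members rose from 148 to 492, with 161 protein coding, 125 long noncoding, 55 snoRNA, 55 miRNA and 39 snRNA genes and a median length of 1315 bases. The other is the TTF4 methylation sample, whose mean over all genes was 0.649 against 0.372 (PTC11), 0.482 (PTC12) and 0.379 (TTF1). Methylation is therefore given line by line.

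Small RNA genes made up most of the members. Counting snoRNA, small nuclear RNA (snRNA), miRNA and other small RNA genes together, they were 82 of 148 members (55.4%) and 283 of 12691 genes with H3K4me3 in 4 lines (2.23%). By class the members were 37 snoRNA, 22 snRNA, 15 miRNA, 8 other small RNA, 36 long noncoding and 16 protein coding genes and 5 pseudogenes, and 9 had no class because their identifier was not in GENCODE vM21. Of the genes with H3K4me3 in 4 lines, 73.3% of the snRNA, 44.4% of the other small RNA, 33.3% of the snoRNA, 12.1% of the miRNA, 3.22% of the long noncoding and 0.145% of the protein coding genes were members. No snRNA gene and 5 snoRNA genes had both marks in all 4 lines. With PTC11 left out, protein coding became the largest class.

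**Figure D1:**
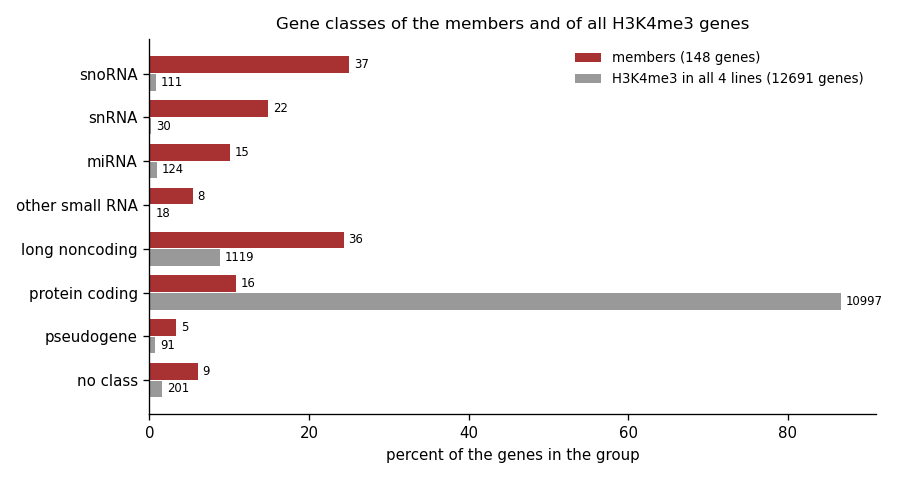
Gene classes as a percent of the 148 members (red bars) and of the 12691 genes with H3K4me3 in all 4 lines (grey bars), with the number of genes at the end of each bar. The 4 small RNA classes held 55.4% of the members, and protein coding genes 86.7% of the H3K4me3 genes.

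Members were short. Their median length was 129 bases (range 54 to 12720), against 20222 bases for all H3K4me3 genes and 28723.5 for genes with both marks in all 4 lines. Of the members, 86 were at most 200 bases long and 32 at least 2000. The H3K36me3 value is a mean over peaks that overlap the gene body, and the part of length in the membership was not tested. The longest members were all protein coding: Osgepl1, which modifies mitochondrial tRNA (12720 bases), the zinc finger gene Zfp952 (12329), Ctxn2 (11148), Ttc39d (10477) and Bet1, a membrane fusion protein of the Golgi (10074). Within 1000 bases of the start the members held a median of 54.5 CpGs, between the 101.5 of genes with both marks and the 33 of all named genes.

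**Figure D2:**
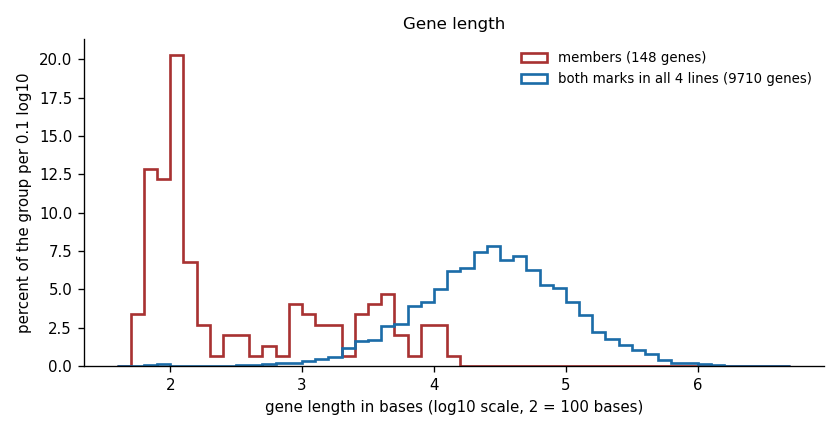
Gene length in bases on a log10 axis against the percent of each group, for the 148 members (red) and the 9710 genes with both marks in all 4 lines (blue). The members have a median of 129 bases and the genes with both marks one of 28723.5 bases.

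H3K4me3 at the members lay near that of other H3K4me3 genes, which is a description because the rule used it. Members had medians of 3.76, 5.15, 5.48 and 3.66 RPKM, and all H3K4me3 genes had 3.74, 5.37, 5.78 and 3.75. The highest mean of any member was at U12 (Rnu12), an RNA of the minor spliceosome, with 5.37, 9.18, 8.69 and 5.02 RPKM. Next came the miRNA gene AL669944.1 (mean 6.53 RPKM), Ttc39d (6.35), Snord2 (6.34), the long noncoding gene Gm12925 inside Macf1 (6.30), SNORD59 inside the ATP synthase gene Atp5b (6.06), AC124338.1 beside Snrpe (6.02) and SNORA32 inside Hibadh (5.98). The lowest means were 1.77 RPKM at the miRNA gene CT030240.1, 1.80 at a U2 gene (Gm24950), 2.50 at SNORD50 (Gm26135), 2.54 at a signal recognition particle RNA gene (Metazoa_SRP) near Nemf and 2.54 at AC163038.2. The 4 values of 46 members (31.1%) equalled those of another gene, as they did for 21.9% of all H3K4me3 genes, so such values belong to a shared stretch. Among the highest members, U12 shared all 4 values with Poldip3, which starts 260 bases away. In the same way Ttc39d shared its values with Srsf7, AC124338.1 with Snrpe and SNORA32 with Hibadh.

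At the limits of the rule, the smallest H3K4me3 values inside it were 0.916 RPKM at CT030240.1 and 0.939 at Vmn2r-ps19, both in TTF4, and 1.31 at AC122357.1 in PTC11. Just outside it lay genes with H3K36me3 in PTC11 alone: the histone gene Hist1h4m with 0.0930 RPKM, Gm15234 with 0.227 and Ttc30b with 0.280.

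The snoRNA members lay inside host genes. Of 37, 34 were within a longer gene on the same strand, in 25 hosts, at a median of 1481.5 bases from the host's start (range 805 to 2934). Hosts included ribosomal protein genes (Rps12, Rps16, Rps3a1, Rpl23a, Rpl37), translation genes (Eef1b2, Eif4a2, Rack1), the snoRNP protein gene Nop56 and noncoding hosts (Gas5, Zfas1, Snhg1, Snhg5, Snhg6, Snhg12). The table held the host of 30 of these snoRNAs, and all 30 had a host with H3K4me3 in 4 lines. Their hosts also had gene body H3K36me3, in all 4 lines for 17 snoRNAs, in 3 for 7, in 2 for 4 and in 1 for 2. A marked host was not particular to the members. Among other snoRNAs with H3K4me3 in 4 lines, 38 of 60 with a listed host had one with H3K36me3 in all 4 lines. H3K4me3 was averaged over peaks from 2 kb before to 3 kb after each start, so a snoRNA's value can come from its host's promoter peak. The short distances and the H3K4me3 of the hosts were thus in part set by the rule. The snoRNAs with H3K4me3 in 4 lines that were not members lay closer to the host's start, at a median of 973 bases over 65 genes, a difference that was not tested. The 3 snoRNA members outside a host, U3 (Rnu3a), SNORA70 (Gm24000) and Snord13, lay 359, 652 and 348 bases from the starts of Gtf3c6, Ccm2 and Tti2 on the other strand.

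Gas5 was the host with the most members. Gas5 itself had 4.30, 7.43, 7.89 and 4.70 RPKM of H3K4me3 and 2.02, 2.59, 2.80 and 1.73 RPKM of H3K36me3. SNORD75, 1428 bases into it, had H3K4me3 of 3.83, 5.88, 5.95 and 4.28 RPKM. SNORD44, 2260 bases into it, had 3.76, 2.77, 2.07 and 2.57 RPKM, and SNORD78 carried the same 4 values. The level thus fell along the gene in PTC12, TTF1 and TTF4 and changed less in PTC11, which was the lowest line at Gas5 and the highest at SNORD44. SNORD74, nearer to the start, was no member because it had H3K36me3 in PTC11 and TTF1, and Snord47 and SNORD81, farther in, had no H3K4me3 value in any line. Methylation was 0 in PTC11, PTC12 and TTF1 at SNORD44, SNORD78 and SNORD79, where TTF4 had 0.0487, 0.105 and 0.159.

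**Figure D3:**
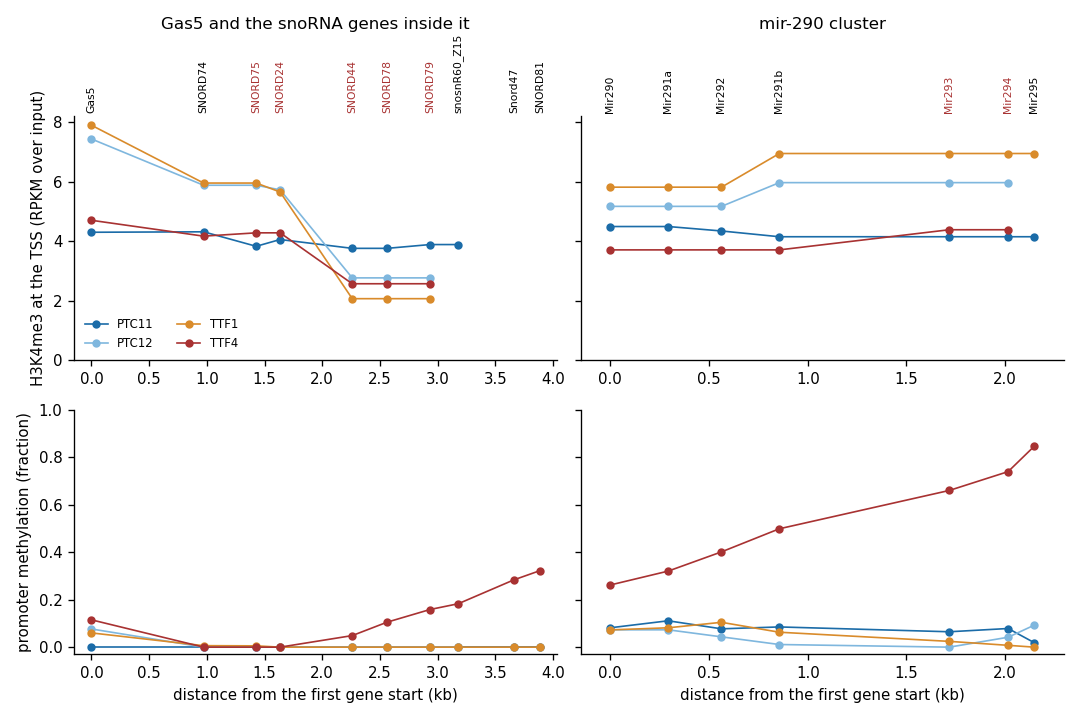
H3K4me3 in RPKM over input (top) and promoter methylation as a fraction (bottom) in the 4 lines at Gas5 with its snoRNA genes (left) and at the mir-290 cluster (right), against the distance in kb from the first gene start, with no point where no value was listed. H3K4me3 fell between SNORD24 and SNORD44 in PTC12, TTF1 and TTF4, and TTF4 methylation was 0.660 at Mir293 and 0.740 at Mir294, where the other lines were below 0.1.

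Rabggtb, a subunit of the enzyme that attaches lipid to Rab proteins, held 3 members. TTF4 methylation was 0.170 at Snord45c, 805 bases from its start, 0.383 at SNORD45 (Gm24494), 1319 bases in, and 0.721 at Snord45b, 2376 bases in. At Snord45b all 4 lines had 0.0662, 0.125, 0.00800 and 0.721, so only TTF4 was high there. Eef1b2, a translation elongation factor, held SNORD51 (Gm26457) and Snora41, with TTF4 methylation of 0.731 and 0.858, while at the start of Eef1b2 itself it was 0.0376. Within each host the starts lie so close that the methylation windows share CpGs.

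The snRNA group held genes named U12, U4atac and U6atac, after RNAs of the minor spliceosome. It also held 14 genes named U6, 2 U1, 2 U2 and 1 U5, after RNAs of the major spliceosome. These names give the RNA family, and whether each copy makes a working RNA was not tested. U4atac had H3K4me3 of 3.09, 5.56, 5.08 and 3.30 RPKM and U6atac 4.04, 2.68, 3.12 and 2.57. Of 22 snRNA members 18 started within 3000 bases of another start, at a median distance of 919.5 bases over the class. So did 11 of 15 miRNA members and 122 of all 148 members. Of 109 such neighbours with listed values, 104 had H3K4me3 in all 4 lines. The H3K4me3 value of these members can thus come from a neighbour's peak, as for the snoRNAs. The table listed 888 genes named U6, of which 19 had H3K4me3 in all 4 lines and 14 were members. The letters TCACCNTAA were searched within bases 80 to 41 before the start and TATA within bases 40 to 16, where the proximal sequence element and the TATA box of U6 promoters are known to lie, and the motifs were picked after these promoters had been read. TCACCNTAA stood in its 40-base window in 4 of the 14 U6 members (Gm24019, Gm24859, Gm23296 and Gm25064), in 0 of 5 other U6 genes with H3K4me3 in 4 lines and in 0 of 789 U6 genes without it in any line. The same window held it at 14 of 35074 named genes (0.0399%), and on the other strand at 5. TATA, which reads the same on both strands, stood in its 25-base window in the same 4 members, in 12.5% of all U6 genes and in 6.45% of all named genes.

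Promoter methylation differed widely among the U6 members. Their medians were 0.127, 0.258, 0.204 and 0.474, and in TTF4 they ranged from 0.00980 to 0.688. Gm24859 was lowest, with 0.0324, 0.00554, 0 and 0.00980, and Gm24182 highest, with 0.337, 0.414, 0.463 and 0.688. The other 3 genes that held both motifs were Gm23296 with a mean of 0.0913, Gm24019 with 0.109, 0.232, 0.168 and 0.176 and Gm25064 with 0.0998, 0.0916, 0.103 and 0.175. All 4 were thus at 0.176 or less in TTF4, as was Gm26243, which held neither motif, with 0.0698, 0.0374, 0.0506 and 0.0591. These genes, Gm26243 among them, also held the most CpGs within 1000 bases of the start, 68 to 82. The remaining U6 members held 33 to 63. Low TTF4 methylation thus went with CpG number as well as with the motifs. Neither was tested, since both were seen in the values. In all, 7 of 22 snRNA and 3 of 37 snoRNA members had more than 1 exact copy in the assembled chromosomes, so that reads inside them cannot be assigned to 1 copy, and each of the 15 miRNA and 8 other small RNA members had 1.

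**Figure D4:**
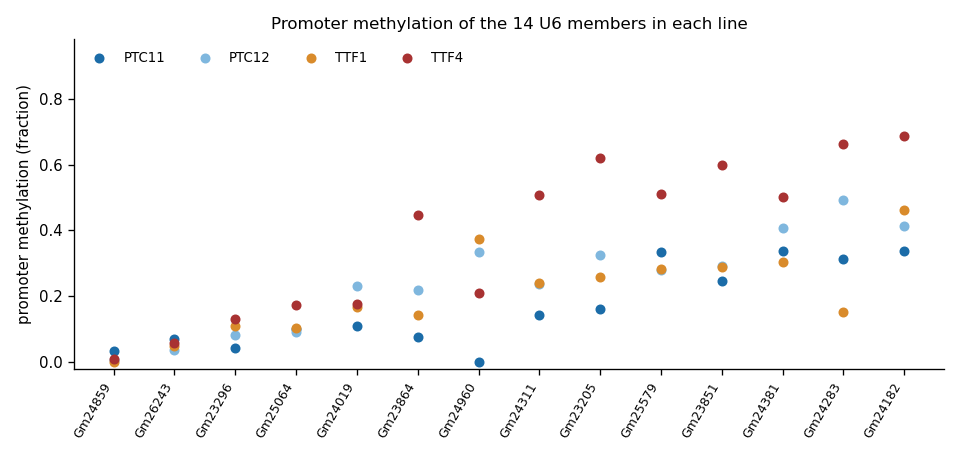
Promoter methylation as a fraction in each line for the 14 U6 members, named by GENCODE and ordered by their mean over lines, with 1 point per gene and line. TTF4 values run from 0.00980 at Gm24859 to 0.688 at Gm24182.

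Several other members carry the names of RNAs that RNA polymerase III makes, although whether each copy is transcribed was not tested. RNase P RNA (Rpph1), which starts 35 bases from Ccnb1ip1, had H3K4me3 of 4.79, 2.74, 4.42 and 2.71 RPKM and methylation between 0.0682 in PTC12 and 0.176 in TTF4. The Y RNA gene Rny1 had 2.84, 7.58, 3.73 and 3.73 RPKM and methylation of 0.156, 0.431, 0.177 and 0.518. Rpph1 was thus the less methylated of the pair in every line. The group also held 3 genes named 5S_rRNA, 2 with n-R5s names and a further Y RNA gene. No gene named 7SK was a member, although 4 of 312 had H3K4me3 in all 4 lines.

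Among the miRNA members, Mir293 and Mir294 had the same H3K4me3 values, 4.15, 5.97, 6.94 and 4.39 RPKM. The genes before them in the cluster, Mir290, Mir291a, Mir292 and Mir291b, were no members because each had H3K36me3 of 3.41 RPKM in PTC11 and 1.81 in TTF1, and Mir295 had no H3K4me3 value in PTC12 and TTF4. Methylation was 0.0817, 0.0731, 0.0728 and 0.262 at Mir290 and 0.0786, 0.0418, 0.00769 and 0.740 at Mir294. TTF4 was thus the highest line at both genes, and more so at Mir294, where CpGs within 1000 bases of the start numbered 16 against 66 at Mir290. At Mir295, which lies beyond Mir294, methylation was 0.0191, 0.0926, 0 and 0.847. Mir449c, inside Cdc20b, had H3K4me3 of 2.97, 5.50, 4.70 and 3.55 RPKM and methylation of 0.0417, 0.0712, 0.167 and 0.0417.

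Long noncoding members were mostly partners of a coding gene on the other strand. The nearest other start lay on the opposite strand for 33 of 36, within 1000 bases for 29 of those, and belonged to a protein coding gene for 27 of the 29, at a median distance of 141 bases. Of 26 such coding genes in the table, all had H3K36me3 in at least 1 line and 19 in all 4. The noncoding gene and its coding partner had the same 4 H3K4me3 values in 20 of 26 pairs, so those values cannot be told apart. Partners included Snrpe (a core splicing protein), Eprs (a tRNA synthetase), Ube2d3 (a ubiquitin conjugating enzyme), Lig3 (a DNA ligase), Atf2 (a transcription factor) and Eif6 (a ribosome assembly factor). AC156618.1, beside Ube2d3, had methylation of 0.00199, 0.0116, 0.0181 and 0.00424, low in every line but read at a start offset by 906 bases.

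Protein coding members were few, and 8 of 16 had another start within 1000 bases, each on the other strand. Of those 8 neighbours, 7 had H3K36me3 in all 4 lines. Ndufb3, a subunit of respiratory complex I that starts 61 bases from Fam126b, had H3K4me3 of 4.38, 3.92, 6.58 and 3.65 RPKM and methylation of 0.0257, 0.00740, 0.0861 and 0.0662. Mrpl50, a protein of the mitochondrial ribosome that starts 83 bases from Zfp189, had 4.15, 4.31, 3.62 and 3.81 RPKM and methylation of 0.0273, 0.119, 0.0257 and 0.152. The others were Osgepl1, Timm21 of mitochondrial protein import, Trappc1 and Bet1 of vesicle transport, the zinc finger genes Zik1 and Zfp952, Mageb3, Ctxn2, Ttc39d, Samd15, Tmem69, Jrkl, Gm9958 and 2610001J05Rik. Zik1, whose promoter is printed above with 11 CpGs, had methylation of 0.223, 0.152, 0.354 and 0.461, and Ttc39d, with 30, had 0.0135, 0.0621, 0.0743 and 0.186. No coding member was above 0.5 in PTC11, PTC12 or TTF1, and 2 were in TTF4.

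None of 10 gene lists had a member: developmental transcription factors (0 of 159 in the table), secreted ligands (0 of 49), immediate early genes (0 of 41), imprinted genes (0 of 38), pluripotency genes (0 of 26), germline genes (0 of 26), housekeeping genes (0 of 18), fibroblast genes (0 of 17), proximal tubule genes (0 of 16) and snoRNA host genes (0 of 6). Since 148 of 35074 named genes and 0.145% of the coding genes with H3K4me3 were members, a count of 0 in lists of this size says little. Of the developmental transcription factors, 117 had H3K4me3 in all 4 lines and 111 had both marks. Of the immediate early genes, 37 had H3K4me3 in all 4 lines and 28 had both marks.

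H3K27me3 was not listed for any member. None of 148 had a value in any of the 4 H3K27me3 libraries, which include none labelled PTC12. The mark was rare in general: 63 of 12691 H3K4me3 genes and 128 of 35074 named genes had a value in any library. Of the 294 H3K4me3 genes of at most 200 bases, 5 had one. With so few genes listed, a count of 0 says that no value was kept there, not that the mark was lacking.

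Promoter methylation, which the rule did not use, was low at the members in 3 lines and higher in TTF4. Of 148 members, 131 matched the methylation table with a value in every line, and in 9 of those the start differed between the tables. Members had medians of 0.0800, 0.129, 0.0808 and 0.287. Genes with both marks had 0.0690, 0.0981, 0.0698 and 0.205, all named genes 0.280, 0.407, 0.273 and 0.681, and genes with H3K36me3 in 4 lines and no H3K4me3 had 0.460, 0.631, 0.475 and 0.830. In each line the members thus lay nearer to the genes with both marks than to all named genes. TTF4 had a value above 0.5 at 37 members (28.2%), and the other lines at 1, 3 and 1. In TTF4 such a value was found at 59.4% of all named genes and 8.16% of all H3K4me3 genes. It was found at 7.29% of the genes with both marks and at 10.3% of H3K4me3 genes with H3K36me3 in 1 to 3 lines. Across the lines, the median of a member's mean was 0.153, and without TTF4 it was 0.0999.

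In every class of members the TTF4 median was the highest of the 4 lines. The snoRNA members had medians of 0.0420, 0.110, 0.0398 and 0.368, and 13 of 37 were above 0.5 in TTF4 against 0 in each other line. The snoRNA genes with H3K4me3 in 4 lines that were not members had a TTF4 median of 0.239. For the 34 snoRNA members inside a host, promoter methylation is read around their own start, 805 to 2934 bases into the host gene. The snRNA members had medians of 0.0932, 0.185, 0.147 and 0.290, with 8 of 22 above 0.5 in TTF4 and 0 in each other line, and the miRNA members 0.150, 0.0817, 0.0889 and 0.225. Long noncoding members had medians of 0.0951, 0.126, 0.0629 and 0.213, and coding members 0.0953, 0.131, 0.0802 and 0.290. The 8 other small RNA members had 0.203, 0.382, 0.210 and 0.514, and the 5 pseudogenes 0.277, 0.268, 0.187 and 0.691. No test was made between classes.

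**Figure D5:**
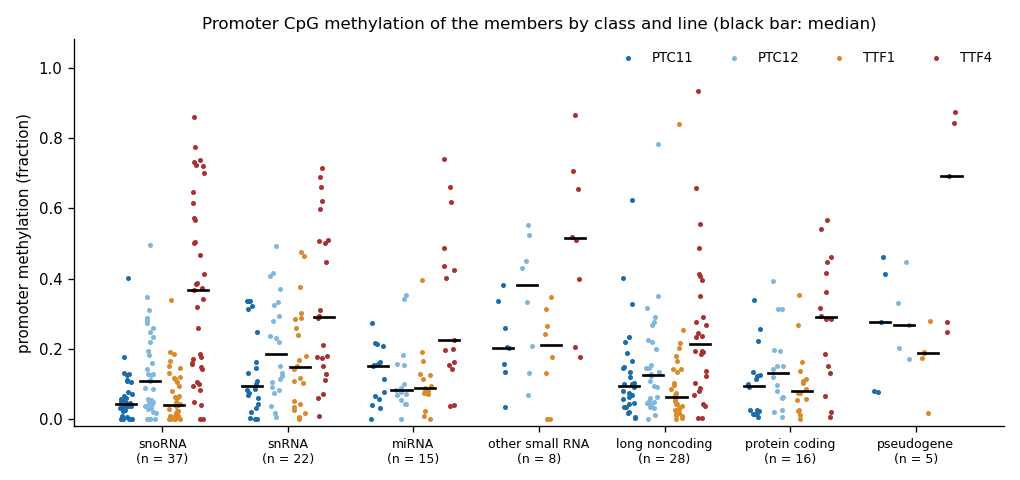
Promoter methylation as a fraction for the members of each class in the 4 lines, with 1 point per gene and line and black bars at the medians. TTF4 has the highest of the 4 medians in every class, and for snoRNAs its median is 0.368 against 0.110 or less in the other lines.

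The number of CpGs moved with methylation in TTF4. Over the 131 members, Spearman's rho between CpGs within 1000 bases and methylation was -0.60 in TTF4, -0.16 in PTC11, -0.29 in PTC12 and -0.14 in TTF1, a description over genes that share samples and in part CpGs. The 47 members with under 40 CpGs had a TTF4 median of 0.540, against 0.426 for the 254 other H3K4me3 genes in that range. With 40 to 79 CpGs the TTF4 medians were 0.284 (55 members) and 0.315 (3658 genes), and with 80 or more they were 0.152 (29 members) and 0.168 (8364 genes). The members were thus above the other H3K4me3 genes in the range with fewest CpGs and below them in the other ranges. TTF4 was the highest line at 98 of 131 members (74.8%) and at 74.3% of other H3K4me3 genes. The coverage behind each fraction is unknown.

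At the extremes, AC163038.2 (1700066J03Rik), a long noncoding gene, had the highest mean, with 0.622, 0.783, 0.840 and 0.935. It was the 1 member above 0.5 in all 4 lines. Its methylation start, however, was offset by -1828 bases from its H3K4me3 start. With methylation read within 1 kb, these fractions were not taken at the start where its H3K4me3 was measured. Next in mean methylation came the 5S RNA gene n-R5s67 (mean 0.527), U6 (Gm24182, 0.476), U1 (Gm23303, 0.470) and SNORD50 (Gm26135, 0.451). The lowest were SNORD24, at 0 in all 4 lines, SNORD75 (mean 0.00137), AC156618.1 (0.00900), U6 (Gm24859, 0.0119) and SNORD44 (0.0122). For AC156618.1 the methylation start was offset by 906 bases from the H3K4me3 start. The widest ranges between lines, all with TTF4 on top, were 0.762 at Vmn2r-ps19, 0.732 at Mir294, 0.727 at Snora41, 0.713 at Snord45b and 0.690 at Rnu73b. Mir293, Mir294 and Snord12 were below 0.1 in the other lines and above 0.5 in TTF4, 3 of 131 members (2.29%), as were 30 of 12276 other H3K4me3 genes (0.244%). A further 17 members were below 0.1 in all 4 lines.

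The comparison of origins asked whether iPSC from PTC and TTF differed at these promoters. For H3K4me3, limma on log2(RPKM + 1) called 0 of 148 members at an adjusted p under 0.05, where 66 of 13709 genes (0.481%) were called. At an unadjusted p under 0.05 it gave 3 members, where the background was 0.977%. The median difference TTF minus PTC over members was 0.02 on the log2 scale with a median SE of 0.43, against a median difference of 0.04 over all genes tested. At 14 members both TTF lines exceeded both PTC lines (9.46%, background 5.04%), and they were lower at 9 (6.08%, background 3.17%).

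The smallest p was at the vomeronasal receptor pseudogene Vmn2r-ps19, with H3K4me3 of 3.04, 3.71, 2.57 and 0.939 RPKM and methylation of 0.0804, 0.202, 0.174 and 0.843. Its H3K4me3 difference TTF minus PTC was -0.73 ± 0.21 (log2, SE; limma adjusted p = 0.106). CT030240.1 had H3K4me3 of 2.05, 2.05, 2.07 and 0.916 RPKM, a difference of -0.33 ± 0.15 (limma adjusted p = 1). In both, TTF4 was the low line, and TTF1 lay far nearer to the PTC lines. The miRNA gene mmu-mir-713 had 1.41, 3.66, 4.54 and 3.50 RPKM, a difference of 0.57 ± 0.29 (limma adjusted p = 1), and its origins overlapped. Without TTF1, limma called Vmn2r-ps19 (adjusted p = 0.000194) and CT030240.1 (adjusted p = 0.00285), which then rested on TTF4 alone, and without TTF4 it called no member.

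Among members whose origins did not overlap, the largest differences towards TTF were at Osgepl1, U3 (Rnu3a), SNORD59 (Snord59a), Gm17102 and U6 (Gm23296). Osgepl1 had 3.58, 5.15, 8.16 and 5.84 RPKM and Rnu3a 4.48, 4.57, 7.29 and 5.81. Towards PTC they were at Vmn2r-ps19, Ctxn2, SNORD50 (Gm26135), SNORD79 and Mir1983. Ctxn2 had 3.52, 3.07, 3.05 and 1.57 RPKM. Apart from Vmn2r-ps19, each of these had a limma adjusted p of 1.

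For methylation, limma on fractions centred on the mean of each sample called 0 of 131 members at an adjusted p under 0.05, where 2 of 50657 genes (0.00395%) were called. It gave 0 members at an unadjusted p under 0.05, where the background was 4.72%. The median difference TTF minus PTC was -0.0340 in centred fraction with a median SE of 0.131, and it was 0.0288 without TTF4 and 0.0127 without PTC11, so the sign turned. On centred fractions both TTF lines exceeded both PTC lines at 16 members (12.2%, background 15%), and they were lower at 9 (6.87%, background 12.8%). Centring by itself shifts promoters of low methylation. SNORD24, with a fraction of 0 in every line, had a centred difference TTF minus PTC of -0.0871, which is an offset of the line means. Without TTF1, limma called 5 members, all higher in TTF4, among 1020 genes called in all: Mir294, Vmn2r-ps19, Mir293, Snord45b and Rnu73b, with adjusted p from 0.0104 to 0.0479. On fractions as deposited the sign turned as well: the median difference was 0.0531 over members and 0.0771 over all genes, and 110 of 131 members were higher in TTF against 53 of 131 on centred fractions. That fit called 0 members, with 9 at an unadjusted p under 0.05.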

How the data were processed

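H3K4me3, H3K36me3 and H3K27me3 ChIP-seq and nanopore CpG methylation were measured in mouse iPSC lines, and samples were grouped as PTC or TTF from their labels. Per the labels and methods, the authors trimmed ChIP-seq reads with Trim Galore 0.0.4, checked them with FastQC 0.11.5, aligned them to mm10 with Bowtie2 2.1.0, called peaks with MACS2 2.0.10 (broad for H3K36me3 and H3K27me3) and counted reads with bedtools 2.17.0 (versions from the submitters' processing notes). The deposited RPKM values are input-subtracted means over peaks, taken from 2 kb before to 3 kb after the TSS for H3K4me3 and H3K27me3 and along gene bodies for H3K36me3, so a gene without a peak has no value. The deposited methylation fractions come from Nanopolish calls after alignment with minimap2 2.17-r941 and SAMtools 1.3.1, in 300-base windows every 30 bases within 1 kb of the TSS. Neither read depth nor CpG coverage can be had from these values, so no counting interval is given.

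Members were found by the rule in the report, and matched by identifier to the methylation table and to GENCODE vM21 (139 of 148). Origins were compared with limma 3.58.1 (R 4.3.3, trended variance, Benjamini-Hochberg over all genes tested), on log2(RPKM + 1) and on fractions minus the mean of their sample. H3K27me3 was not tested because both PTC libraries carry 1 line's name. The fits were tested on simulated data. Alternatives covered the rule's limits, pseudocount, filter, normalization, variance model, centring and each line left out. The members, lists and tests were chosen with earlier results of these data known. Named genes were those with the highest and lowest H3K4me3 and methylation, the widest methylation range, the greatest length, the smallest p, the largest differences between origins that did not overlap, and those nearest to the rule's limits. Other genes named as class or host examples (Mir449c, Rny1, Rpph1, U4atac, U6atac, Ndufb3, Mrpl50, the Gas5, Rabggtb, Eef1b2, mir-290 and U6 sets) were chosen after their values were seen. Not every sequence that was read is reported here.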

Additional observations from a re-analysis of the deposited data

How the results depend on the processing

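When 1 line was left out of the rule the number of members, 148, became 492 without PTC11, 165 without PTC12, 159 without TTF1 and 185 without TTF4. It was 226 with H3K4me3 asked for in at least 3 lines and 32 among genes of at least 2000 bases, which had 37.5% protein coding genes and a median length of 4672 bases by construction. The members called between origins ranged from 0 to 2 for H3K4me3 and from 0 to 5 for methylation when 1 line was left out, with all calls in the fits without TTF1, and stayed at 0 in the other settings. At CT030240.1 the H3K4me3 difference in log2, -0.33 with all lines, went from -0.671 without TTF1 to 0.00754 without TTF4, so the sign turned. The median H3K4me3 difference of the members went from -0.22 to 0.26 (log2) when 1 line was left out, and that of all genes tested from -0.21 to 0.31. Over all genes, H3K4me3 calls went from 66 to 0 with a minimum mean of 1 RPKM, with genes holding a 0 left out, without a variance trend and with quantile normalization, to 102 with a pseudocount of 0.1 and to 108 without TTF1. Methylation calls went from 2 to 0 as deposited and without PTC12, to 1 without a trend, to 5 without PTC11, to 9 on chromosomes 1 to 19, to 51 with medians subtracted, to 227 without TTF4 and to 1020 without TTF1. The causes were not tested. The median methylation of the members went from 0.0999 to 0.177 when 1 line was left out, an alternative chosen after seeing the data. Under all alternatives together, those printed above included, 40 summary values stayed near the main value and 7 moved. Nearness was judged by a limit on fold change, on the spread between lines or on an interval for a share. For the named genes, 24 values kept direction and side of the threshold. No paired analysis was possible because the animal behind each line is not given and the origins share no number. The PTC lines are numbered 11 and 12 and the TTF lines 1 and 4. These numbers do not show whether any lines came from the same animal. The paper states that PTC and TTF were taken from littermates. With 2 clones per origin and no coverage, differences smaller than the SE, and many larger ones, could be missed.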
